A study of Mus musculus with 5 samples.

Results

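A single electroconvulsive shock was compared with sham handling in the mouse ventromedial hypothalamus (VMH), both at 2 h. The comparison rests on 2 of the 5 arrays of the study, chosen by their titles, and each side is 1 array. The mice were C57Bl/6, of an age and sex that the sources used here do not state. Under isoflurane, the shocked animals received a brief current through ear clip electrodes, an electroconvulsive seizure (ECS), 1 time. Sham animals went through the same handling with no current and were collected at the same 2 h. No genetic change is named for any group. The RNA on each array came from a pool of 2 or 3 animals, taken from dried sections by laser microdissection and amplified from a very small amount before labelling. The other 3 arrays (1 shock at 6 h, 7 shocks at 2 h and 7 shocks at 6 h) are used below only as further readings of the same genes. Pooled animals on 1 array give no spread between animals, so no error and no test can be attached to any difference here, and genes are called higher or lower by size alone.

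The VMH is a hypothalamic nucleus of mostly glutamatergic neurons that acts in satiety, glucose balance and defensive and reproductive behaviour. Strong firing of neurons opens calcium channels and activates MAP kinases and cyclic AMP signalling, which turn on immediate early genes within minutes without new protein synthesis. The first of these encode transcription factors, among them Fos, Jun and the Egr zinc finger proteins. They are followed by effectors that act at synapses, by secreted factors and by inhibitors that switch the same pathways off again. A seizure and handling under anaesthesia also release glucocorticoids, which act on target genes in neurons and glia.

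Array values are MAS5 signals, 1 brightness value per probe set on a linear scale. For print, the signals of each array were scaled to the median of the sham array, so that a sham signal is the deposited value. Differences are log2 differences of the single-shock 2 h array minus sham after centring each array on its median, with a pseudocount of 1.2. A value of 1 is 2-fold. After the dimmer 50% of probe sets were set aside, 6650 genes remained. Of these, 398 (5.98%) were at least 2-fold higher 2 h after 1 shock and 418 (6.29%) at least 2-fold lower, together 12.3%. Every list count below is to be read beside these shares, which were larger among dim genes. Before centring, the shocked array lay 0.13 below sham on the log2 scale, and on that scale the split was 291 higher to 572 lower, or 33.7% higher in place of 48.8%. List medians between 0 and 0.13 therefore change sign without the centring, as does the direction of most genes in that range. Over all 6650 genes the median was 0.01 and 3385 lay above 0. Among the 10 possible pairs of the 5 arrays, this pair had the smallest share past 2-fold, and the other pairs ran from 12.9% to 16.5%.

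The labelled tissue was checked against marker lists, and sums over a list are of deposited signals. Of 13 VMH markers on the array, 8 were kept. Nr5a1, which marks VMH neurons from development on, had 78.5 in sham and, after scaling, 55.3 on the shocked array (-0.50), and the glutamate transporter Slc17a6 of these neurons read 371 and 368. The 5 VMH markers below the filter were Nkx2-1, with deposited signals of 7.8 and 1.9, Sox14 with 4.1 and 2.1, Fezf2 with 4.9 and 7.5, Dlk1 with 9.6 and 12.2 and Esr1 with 0.1 and 20. Another label field names the paraventricular nucleus (PVN) instead. Of its 5 markers on the array 2 were kept, the oxytocin gene Oxt at 12.6 and 22.3 (0.76) and the thyrotropin-releasing hormone gene Trh at 90.8 and 123 (0.43). The PVN factors Sim1 and Otp and its vasopressin gene Avp were below the filter, with deposited signals between 1.1 and 20.9 on these 2 arrays. Both nuclei thus had kept and dim markers. Summed over the list, VMH markers read 2864 in sham and 3122 after 1 shock, neuron markers 15089 and 15024, astrocyte markers 10661 and 10851, oligodendrocyte markers 12328 and 11800, and microglia markers 2061 and 1779. The VMH sum includes Nptx2, which neuronal activity also controls, with deposited signals of 134.5 and 395.1. Of the 8 kept VMH markers 3 lay above 0 and 5 below, so the higher sum is no measure of VMH content. Arcuate nucleus markers, which lie beside the VMH, summed to 766 and 496, and all 4 kept members lay below 0, at a median of -0.52. Blood markers summed to 80.7 and 20.5, those of cortex and amygdala neurons to 849 and 825, and those of endothelium to 1433 and 1878. Of the 3 kept endothelium markers 1 lay above 0, the glucose transporter Slc2a1 at 0.77, and 2 below. The higher endothelium sum is thus no measure of endothelium content. Among the 4 blood markers, the haemoglobin gene Hba-a1 had 6.3 and 0.3, and the calgranulin gene S100a9 58.9 and 16.6. In tissue RNA, fewer cells of a type and less RNA per cell cannot be told apart. The ratio of 3' to 5' signal of Gapdh, which grows with RNA breakage or short amplification products, was 6.67 in sham and 8.77 after 1 shock, and 5.37 to 5.88 on the other arrays. That of beta-actin was 0.799 and 0.889. The part of these tissue and RNA differences in the results below was not tested.

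Several immediate early transcription factors stood well above sham. Fos, which forms the AP-1 factor with Jun proteins, read 9.4 on the sham array and 154 2 h after 1 shock. It read 18.4 at 6 h after 1 shock, 62.3 at 2 h after 7 shocks and 20.2 at 6 h after 7 shocks, so the shocked 2 h array was the highest of the 5 and sham the lowest. The log2 difference from sham was 3.87, the largest of all 6650 genes. Its partner Jun was brighter, at 63.5 in sham and 361 after 1 shock (2.49), with 68.3, 228 and 135 on the other 3 arrays in the order just given, which is kept throughout. Both probe sets of Jun gave nearly the same value, and the second lay at 2.37. The small Maf proteins pair with AP-1 factors, and Maff read 15.6 and 43.8 (1.42), with 20.1, 51.6 and 25.7 on the others. Mafk differed less, at 0.67. Of the 13 AP-1 genes on the array 7 were kept, and 3 of them were at least 2-fold higher and 0 lower, with a list median of 0.67.

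The 6 AP-1 members below the filter are given as deposited, since dim signals carry little weight. Fosb, whose stable splice form builds up with repeated stimulation, read 0.3 in sham and 91.2 after 1 shock, against 10.3, 39.1 and 29 on the other 3 arrays. Its sham value is at the floor of the array, so no fold is given. Fosl2 read 1.7 and 9.4, the stress factor Atf3 10.2 and 22.1, Batf 0.6 and 1.8, Junb 8.2 and 8, and Fosl1 38.1 and 20.8. Higher and lower signals thus both occurred among the dim members, and Fosb was the only member of the 6 above 73.4, the median of kept probe sets on the shocked array.

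The Egr family of zinc finger factors showed the highest list median of all lists, 2.07 over 4 kept genes of 6, with 3 higher and 0 lower. Egr1 was the brightest of the early genes. It read 218 in sham and 1265 after 1 shock (2.53), against 273 at 6 h after 1 shock, 944 at 2 h after 7 shocks and 257 at 6 h after 7 shocks. Both 2 h shock arrays were thus far above sham and both 6 h arrays close to it. Egr2 read 25 and 143 (2.46), with 35.9, 163 and 93.6 on the other arrays, and its second probe set, below the filter, had deposited signals of 4.9 and 59.6. The corepressors Nab1 and Nab2 bind Egr proteins and limit their activity. Nab2 read 12.2 and 41.5 (1.67), the highest of the 5 arrays. Nab1 depended on the probe set, at 0.83 on the brighter and -1.46 on the other. Egr3 and Egr4 were below the filter, at 28.2 and 11.7 for Egr3 and 0.7 and 10 for Egr4. The filter used the mean over all 5 arrays, so a gene dim in sham, such as Nab2 or Fos, could pass through its shock arrays. Egr3 read higher than Nab2 in sham and did not pass. List medians and counts therefore hold for the kept genes only.

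**Figure D1:**
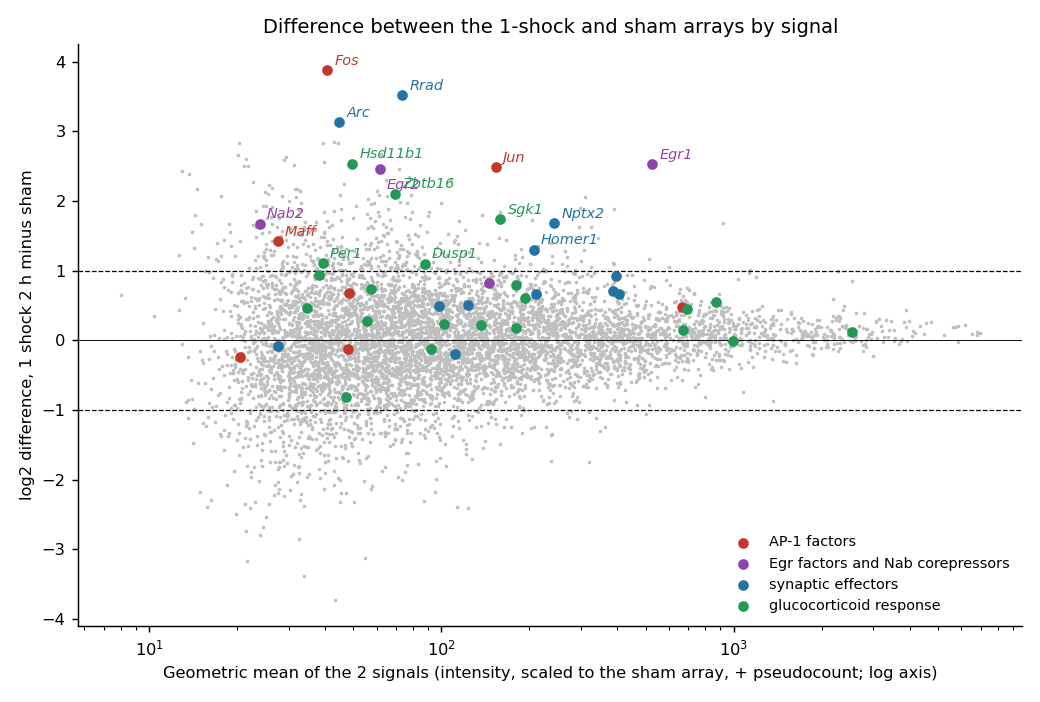
Log2 difference of the single-shock 2 h array minus sham (vertical axis) against the geometric mean of the 2 scaled signals (horizontal log axis) for the 6650 genes, 1 point per gene, with the 2-fold lines and early genes named. The scatter narrows with brightness, and Egr1 at 2.53 stands apart among bright genes, whereas Fos at 3.87 and Arc at 3.13 start from dim sham signals.

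Klf10, an early zinc finger gene that TGF-beta also turns on, read 29.5 in sham and 167 after 1 shock (2.45), with 67.2 and 142 on the 6 h arrays after 1 and 7 shocks. It read higher still at 2 h after 7 shocks. Klf15, a glucocorticoid target, read 30.4 and 5.81 (-2.17, and -1.57 with a pseudocount of 6.1) and was lowest of the 5 arrays after 1 shock. Klf6 lay at 0.91 or -0.45 by its kept probe sets, and Klf7 at 0.57 and 0.63. The Kruppel-like list, 7 kept of 10, held 1 gene higher and 1 lower and had a median of 0.14. No Nr4a orphan receptor, a family of early nuclear receptors, passed the filter. Their deposited signals in sham and after 1 shock were 16.2 and 35 for Nr4a1, 18.6 and 25.3 for Nr4a2 and 17 and 51.5 for Nr4a3. All 3 read higher on the shocked array, at levels below its median.

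Other rapid response genes comprised 17 kept of 25 on the array, with 4 higher, 0 lower and a median of 0.46. Srf encodes the serum response factor that carries MAP kinase signals to the Fos and Egr promoters. It read 176 and 376 (1.09, and 0.96 without centring), with 88.4, 294 and 222 on the others. Tiparp, an ADP-ribosyltransferase, read 57.2 and 118, and its 3 probe sets gave 1.03 to 1.81. The light-responsive clock gene Per1 read 25.5 and 56.3 (1.11, and 0.98 without centring). Myc, a growth-associated factor, was the kept member furthest below sham, at 59.5 and 30.1 (-0.95). Of the 8 dim members, Zfp36, which destabilises cytokine mRNA, had deposited signals of 8.3 and 27.8, and Ier2 of 0.4 and 7.5. Only the antiproliferative Btg2, at 20.1 and 10.3, and the matrix protein gene Ccn1, at 6.6 and 0.4, read lower. Such dim signals carry little weight.

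**Figure D2:**
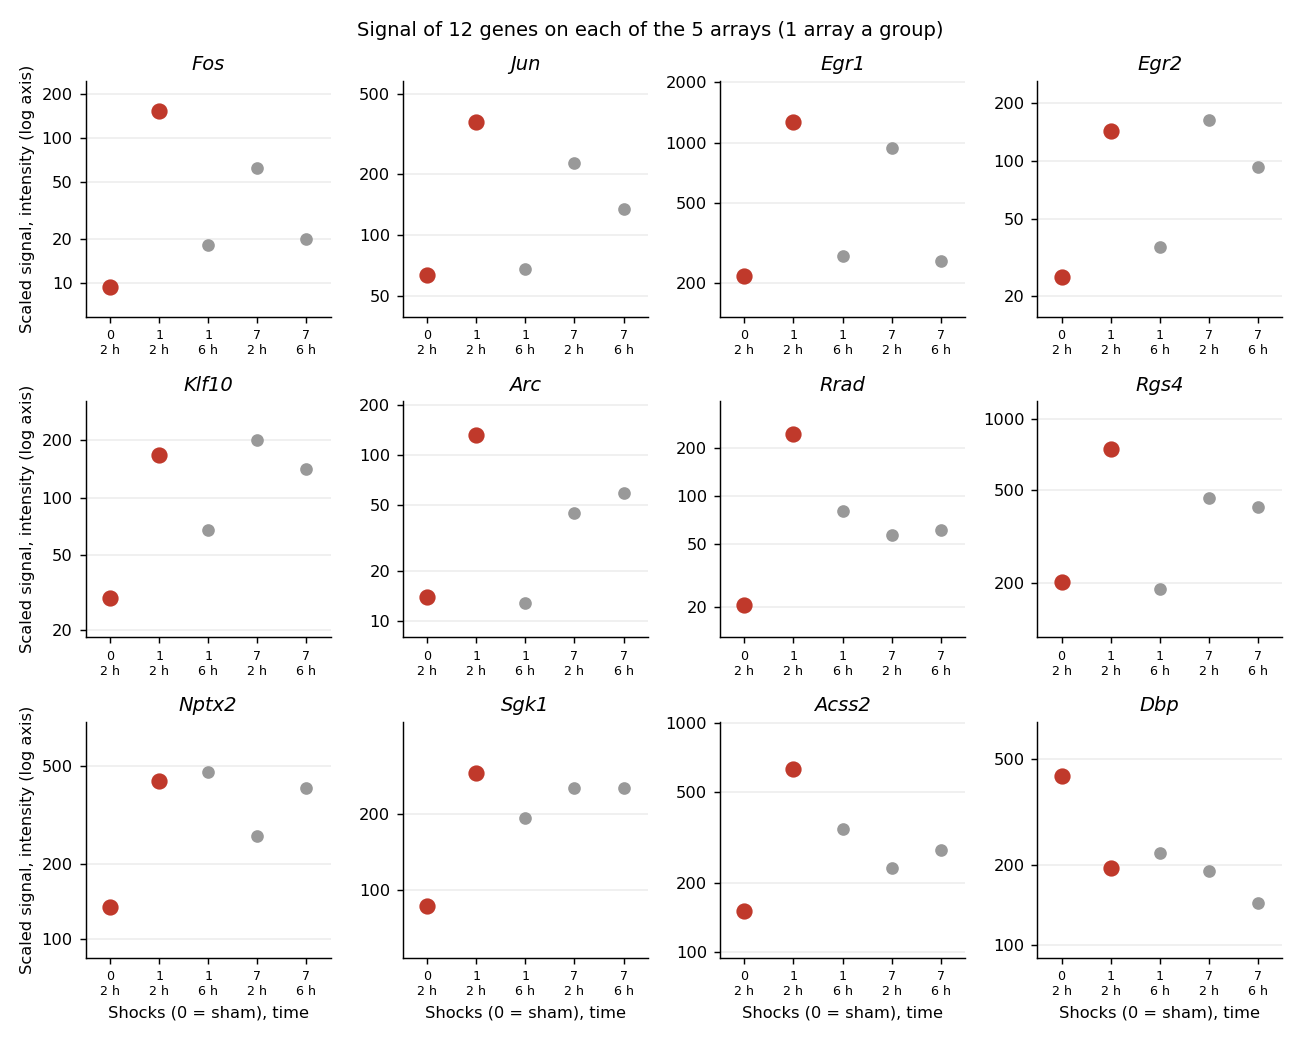
Signal, scaled to the sham median on a log axis, of 12 named genes on each of the 5 arrays (vertical axis, with shocks and time on the horizontal axis, 1 point per array, red for sham and 1 shock at 2 h, grey for the others). Fos runs from 9.4 in sham to 154 after 1 shock at 2 h and Egr1 from 218 to 1265, and both are lower again on the 6 h arrays.

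Promoter windows of these genes are shown because Srf, AP-1, Egr and cyclic AMP response factors bind known short sequences in early genes, and the windows let the reader see where those letters lie. Each window holds 250 bases before and 50 after a gene's start, from RefSeq on GRCm38.p6, written 5' to 3' on the gene's strand. The searched patterns were the cyclic AMP response element TGACGTCA, the AP-1 site TGANTCA, the Egr site GCGNGGGCG and the serum response element known as the CArG box, on both strands. None of these patterns contains another, and capitals mark a match. Egr2 (plus strand, chr10:67537619-67537918) holds a CArG box, Dusp1 (minus strand, chr17:26508423-26508722) a cyclic AMP response element, Srf (minus strand, chr17:46556113-46556412) an Egr site followed by 2 CArG boxes, and Srxn1 (plus strand, chr2:152105274-152105573) 2 AP-1 sites.
Egr2: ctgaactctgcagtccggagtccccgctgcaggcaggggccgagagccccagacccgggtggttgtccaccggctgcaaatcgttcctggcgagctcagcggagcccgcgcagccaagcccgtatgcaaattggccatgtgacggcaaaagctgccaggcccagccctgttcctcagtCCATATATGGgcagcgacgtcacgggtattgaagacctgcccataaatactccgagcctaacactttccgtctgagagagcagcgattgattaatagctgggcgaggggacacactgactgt
Dusp1: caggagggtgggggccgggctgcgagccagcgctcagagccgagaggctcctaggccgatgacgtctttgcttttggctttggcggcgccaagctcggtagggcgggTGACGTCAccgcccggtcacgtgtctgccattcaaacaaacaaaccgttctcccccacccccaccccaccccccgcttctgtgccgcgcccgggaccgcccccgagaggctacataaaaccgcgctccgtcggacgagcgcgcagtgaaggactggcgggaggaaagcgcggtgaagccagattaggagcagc
Srf: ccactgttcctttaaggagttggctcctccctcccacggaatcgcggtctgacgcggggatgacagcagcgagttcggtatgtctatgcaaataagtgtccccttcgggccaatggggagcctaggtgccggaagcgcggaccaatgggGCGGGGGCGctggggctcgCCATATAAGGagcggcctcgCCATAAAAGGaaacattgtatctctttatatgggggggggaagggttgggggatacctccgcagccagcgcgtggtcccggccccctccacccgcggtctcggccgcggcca
Srxn1: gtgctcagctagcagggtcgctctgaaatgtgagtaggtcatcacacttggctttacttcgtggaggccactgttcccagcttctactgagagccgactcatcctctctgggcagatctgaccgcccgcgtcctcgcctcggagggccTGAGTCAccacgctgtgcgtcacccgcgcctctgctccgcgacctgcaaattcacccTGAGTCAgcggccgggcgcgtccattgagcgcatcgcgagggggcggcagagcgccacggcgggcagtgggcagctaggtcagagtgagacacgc
Each printed window holds a match. Egr2 has 5 windows, and the first holds none of the 4 patterns. Bdnf has 7 windows, of which only the second holds a match, an AP-1 site. The windows of Fos and Jun held none of the 4 patterns, which says only that these exact letters are not in these windows.

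Over all measured genes, 5445 of 6650 had a promoter window, as did 321 of the 398 higher genes and 342 of the 418 lower genes. The windows of a single chromosome were not used, so some genes counted as without a window may have one. A CArG box was present in 2.49% of the higher genes with a window, in 0.877% of the lower and in 1.73% of all measured genes. The AP-1 site was present in 7.48% of the higher, 6.73% of the lower and 5.71% of all measured genes. For the cyclic AMP response element the shares were 4.05%, 2.63% and 3.8%, and for the Egr site 13.4%, 12.3% and 13.5%. Among all 27025 genes with a window the shares were 1.81% for the CArG box, 8.97% for the AP-1 site, 2.03% for the cyclic AMP response element and 6.27% for the Egr site. The CArG box shares rest on 8 higher and 3 lower genes. These shares are descriptions and were not tested.

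Among synaptic effector genes 4 of 12 kept genes were higher and 0 lower, with a median of 0.69, where 5.98% of all genes were higher. This list, like the others, was chosen with earlier results of these data known. Its members Rrad and Arc were dim in sham and could pass the filter through their shock arrays. Rrad, a small GTPase that holds back calcium channels, read 20.5 in sham and 247 after 1 shock (3.52), with 79.8, 56.4 and 61.1 on the other arrays. Arc, which removes AMPA receptors from active synapses, read 13.9 and 131 (3.13), and 12.7, 44.5 and 58.8 elsewhere. Both were highest of the 5 on the single-shock 2 h array, and Arc read lower than sham on the 6 h array after 1 shock. Nptx2, a secreted pentraxin that gathers AMPA receptors, was bright on every array. It read 134 in sham, 433 after 1 shock (1.68) and 471, 261 and 405 on the others, so here sham was the low array of the 5. Homer1 encodes a scaffold of metabotropic glutamate receptors and, from a shorter activity-induced transcript, its own antagonist. Its brightest probe set read 131 and 324 (1.30), the second 58.1 and 529 (3.16) and the third 31.6 and 33.2 (0.07). The second probe set read 8.52 at 6 h after 1 shock and 188 at 2 h after 7 shocks. The sources used here do not state which transcript each probe set reads.

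Rgs4 ends signalling through G proteins of muscarinic and other receptors by speeding their GTP hydrolysis. It read 201 in sham and 745 after 1 shock (1.88), with 187, 460.2 and 423 on the other arrays. Its other probe sets went the same way, at 1.51 and 0.79. It was the only gene past 2-fold among 11 kept G-protein brakes of 16, whose median was 0.02. Rgs16 lay at -0.66, Rgs10 at 0.51 and Rgs9 at 0.49.

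Among secreted activity-regulated factors, 8 of 20 were kept, 3 were higher and 1 lower, and the median was -0.08. It was 1.41 when the dim members were included with no filter, where the median of all genes was 0.10. The neurotrophin Bdnf read 34.3 and 112 (1.67), with 59.1, 71.2 and 170.0 on the others, so the highest array was that of 7 shocks at 6 h. Its second probe set, below the filter, had deposited signals of 3.5 and 25.8. Plat, the tissue plasminogen activator, read 11.7 and 28.6 (1.21). The growth factor Pdgfa lay at 1.34 on its brighter probe set and 0.15 on the other, and Tgfb2 at -1.02. Among the 12 dim members Timp1, an inhibitor of matrix proteases, had deposited signals of 0.4 and 27.8, Fgf2 of 8.1 and 38.6, Inhba of 2 and 15.6 and Hbegf of 15.7 and 38.6. Gdnf, at 2.3 and 0.2, and Ptgs2, at 5.2 and 3.7, went the other way. Many of these signals are near the floor and carry little weight. Growth factor receptors, 13 kept of 21, held 0 higher and 2 lower at a median of 0.24. The lower ones were the activin receptor Acvr1, at 47 and 8.22 (-2.35), and the insulin-like growth factor receptor Igf1r, at 47.1 and 17.4 (-1.37). Fgfr3 lay just under the line at 0.99, and the neurotrophin receptor Ntrk3 at 0.95 or -0.57 by probe set.

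MAP kinases are switched off by phosphatases and inhibitors that they induce themselves. Of this feedback list 8 of 14 were kept, with 2 higher, 0 lower and a median of 0.39. Dusp1, a nuclear phosphatase of MAP kinases whose promoter window is printed above, read 58.6 and 127 (1.10, and 0.97 without centring), with 51.6, 74.8 and 77.8 on the other arrays. Rasa1, which turns off Ras, gave 0.53 to 1.37 over 3 probe sets. Spred2 lay at 0.86 and Spry2 at -0.72. The kinases of the pathway and their targets differed less, with 0 higher and 1 lower of 15 kept and a median of 0.23. The lower gene was Elk1, a partner of Srf, whose probe sets disagreed at -2.09 and -0.10. Nras ranged from -1.44 to 0.65 over 3 probe sets, and Elk4 lay at 0.88.

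The Gadd45 and growth arrest list, 13 kept of 17, held 1 higher and 0 lower with a median of 0.33. Gadd45b, which takes part in DNA repair and demethylation, read 26.1 and 60.2 (1.17), with 20.6, 30.7 and 58.4 on the other arrays. The cell cycle inhibitor Cdkn1a lay at 0.79, highest of the 5 arrays after 1 shock at 235 against 135 in sham. Ccng2 and Trp53inp1 both lay at 0.66.

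Upstream of these genes, cyclic AMP and CREB signalling had 0 higher and 3 lower among 18 kept of 23, at a median of -0.10. The lower genes were the phosphodiesterase Pde8a (100.4 and 42.2, -1.23), the adenylyl cyclase Adcy6 (27.4 and 11.8, -1.13) and the CREB coactivator Crebbp (52.3 and 24.6, -1.05). With a pseudocount of 6.1 the last 2 fell short of 2-fold, at -0.87 and -0.92. Calcium signalling kinases and phosphatases had 3 higher and 1 lower of 24 kept, with a median of 0.07. The calmodulin kinases Camk4 and Camk1 lay at 1.42 and 1.5, but at 0.41 and 0.02 on their other probe sets. The calcium release channel Ryr3 read 13.8 and 43 (1.56), and the calcineurin subunit Ppp3cc 39.9 and 15.3 (-1.31).

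Glucocorticoid-responsive genes were mostly above sham. Of 21 kept genes of 23, 18 lay above 0, 5 were at least 2-fold higher and 0 lower, and the median was 0.47. Among the 12 bright members 1 was higher and the median was 0.23. Sgk1, a kinase that controls ion channels and transporters and a direct target of the glucocorticoid receptor, read 85.9 in sham and 289 after 1 shock (1.74). Its other arrays read 193, 253 and 252, so sham was the low array of the 5. Hsd11b1, which regenerates active glucocorticoid within cells, read 19.4 and 118 (2.53), with 78.2, 34.7 and 59.7 elsewhere. The zinc finger gene Zbtb16 read 32.2 and 142 (2.10) on its kept probe set, while a dim probe set had deposited signals of 19.7 and 5.1. Per1 and Dusp1, given above, are the other 2 of the 5. Fkbp5, a receptor cochaperone that glucocorticoids induce, went the other way at 61.4 and 34.3 (-0.82), the lowest of the list. Klf15, which is not on the list, lay at -2.17 as given above.

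In the circadian clock list, 16 kept of 20, 3 were higher and 1 lower at a median of 0.08. The negative clock factors Per1 and Per3 were both higher, Per3 at 15.7 and 46.4 (1.49). Dbp, an output factor whose level swings widely over the day, was lower on both probe sets, at -1.13 and -1.26. It read 429.6 in sham and 196 after 1 shock, and 221, 190.3 and 144 on the other arrays, so sham was the high array. The sources used here do not state the clock hours of collection. Clock itself cannot be placed, with 1.14 on its brighter probe set and -2.06 on the other.

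Leptin and insulin signalling, the pathways through which the VMH senses energy stores, had 4 higher and 1 lower among 19 kept of 26 and a median of 0.56. Among the 10 bright genes of the list, those with deposited signals at or above the array median on both arrays, the median was 0.04. Stat3, which carries the leptin signal to the nucleus, was higher on both kept probe sets, at 1.31 and 2.11, and read 28.9 and 73.5 on the brighter. The kinase Jak2 of the leptin receptor read 116 and 272 (1.22), with 162, 143 and 107 on the other arrays. Its adaptor Sh2b1 read 9.3 and 32.2 (1.67), and the insulin-controlled factor Foxo1 45.5 and 95.5 (1.05, and 0.92 without centring). The kinase Akt2 lay at -1.01 or 0.42 by probe set. The leptin receptor Lepr was below the filter at 0.6 and 6.

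Receptors for appetite signals were mostly dim, with 8 kept of 27, 2 higher, 1 lower and a median of 0.37. The cholecystokinin receptor Cckbr was higher on both probe sets, at 1.08 and 1.35, from 50.5 in sham to 108 on the brighter (0.94 without centring). The somatostatin receptor Sstr2 read 15.9 and 61 (1.86), with 18.1, 38.9 and 31.1 elsewhere. The cannabinoid receptor Cnr1 read 93 and 42 (-1.13) and was lowest of the 5 arrays after 1 shock.

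Neuropeptide precursors, 18 kept of 25, held 1 higher and 1 lower with a median of 0.05, and the higher gene was Bdnf. The lower was the orexin precursor Hcrt, made in the neighbouring lateral hypothalamus, at 55.3 and 20.7 (-1.37). The VMH peptide PACAP, encoded by Adcyap1, read 513 in sham, 755 after 1 shock (0.56) and 1126, 1154 and 983 on the others. The enkephalin precursor Penk lay at 0.94, and the arcuate precursors Pomc, Cartpt and Npy at -0.60, -0.43 and -0.10. Granins and processing enzymes of secretory granules had 0 genes past 2-fold among 16 kept of 19 and a median of 0.06. The secretogranin Scg2 was the furthest of them above sham at 396 and 680.0 (0.78), and it read 740.0, 643 and 767 on the other arrays. In the VMH marker list the 2 higher of 8 kept were Nptx2 and Bdnf, which neuronal activity also controls. The rest lay between -0.86 (Gda) and 0.56 (Adcyap1), with a list median of -0.10. Sex steroid and thyroid signalling had 0 higher and 1 lower of 12 kept of 18, with a median of -0.11. The lower gene was the thyroid hormone receptor Thrb, at 52.6 and 17.4 (-1.53). The oestrogen receptor Esr1 was at the floor in sham, at 0.1 against 20 after 1 shock.

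Among stress lists, heat shock proteins had 3 higher and 1 lower of 18 kept of 21 and a median of 0.19, and 15 of the 18 lay above 0. Over all genes 5.98% were higher and 6.29% lower. Dnajb5, a cochaperone, read 167 and 516 (1.62) and was at 0.76 or more on its other probe sets. The inducible Hspa1a read 18.8 and 40.3 (1.05, and 0.92 without centring), and its testis-enriched relative Hspa1l 7.1 and 18.2 (1.22). Both were far higher at 6 h after 1 shock, at 88.2 and 117. The 2 genes are close relatives, so a probe set of either may read both transcripts. The small heat shock gene Hspb8 lay at -1.35. The unfolded protein response, 19 kept of 25, had 0 genes past 2-fold and a median of 0.03.

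Hypoxia and glycolysis genes also had 0 past 2-fold, among 21 kept of 23, with a median of 0.03. Within that list the 2 main brain glucose transporters went opposite ways on several probe sets each. Slc2a1, the transporter of the blood-brain barrier and astrocytes, read 408 and 697, with 0.62 to 0.77 over 3 probe sets. Slc2a3, the neuronal transporter, read 386 and 213, at -0.83 and -0.86 over 2 probe sets. On the other arrays Slc2a1 read 485, 451 and 442 and Slc2a3 418, 378 and 440.4, so that the single-shock 2 h array was the highest of the 5 for the first and the lowest for the second. NF-kappaB and cytokine response genes were mostly too dim to be kept, at 8 of 28, with 2 higher (Stat3 and Jak2), 1 lower and a median of 0.11. The lower gene, the cytokine feedback inhibitor Socs2, lay at -1.17 on its brighter probe set and 0.07 on the other. The interleukin genes Il1b and Il6 read 0.6 and 3.7, and 1.4 and 0, as deposited.

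Lists of transmission and excitability stayed close to the median of all genes. Glutamate receptors had 0 genes past 2-fold of 6 kept of 14 (median -0.18), with Gria1 at -0.53 and Gria2 at 0.08. GABA and glycine receptors had 1 higher and 1 lower of 9 kept of 15 (median 0.06). The higher was the subunit Gabra3, at 18.9 and 42.2 (1.11, and 0.98 without centring), and the lower Gabrg3, at 35.8 and 11.7 (-1.52). GABA synthesis and transport genes had 0 past 2-fold of 4 kept of 7 (median -0.08), with the synthesis enzymes Gad1 and Gad2 at -0.32 and -0.50. Potassium channels had 0 higher and 1 lower of 21 kept of 31 (median -0.03). The lower was the leak channel Kcnk2, at 141 and 62.8 (-1.15), while the astrocyte channel Kcnj10 lay at 0.93. Sodium and calcium channels had the lowest median of these lists, -0.29, with 11 of 15 kept of 21 below 0 and 0 past 2-fold. Synaptic vesicle genes had 0 higher and 1 lower of 27 kept of 27 (median 0.02), the lower being the priming factor Unc13a at -1.01. Vamp1 lay at -0.85 on its brighter probe set and lower still on the other.

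The respiratory chain and the ribosome, the largest of the metabolic and housekeeping lists by kept genes, had medians near 0. The respiratory chain had 0 genes past 2-fold among 46 kept of 47, all of them bright, with a median of 0.10, and the cytosolic ribosome 0 among 32 kept of 35, with a median of 0.04. The metallothioneins, which bind zinc and respond to glucocorticoids, had 0 of 3 past 2-fold and a median of 0.45. Mt1 read 717 and 1051 (0.55) and Mt2 593 and 809 (0.45), and Mt3 lay at -0.19. Sterol and lipid synthesis had 1 higher and 1 lower of 26 kept of 27 (median 0.30), with 19 above 0. The higher was the isomerase Ebp, at 13.8 and 58.7 (2.00), and the lower Tmem97. Chromatin and DNA methylation genes had 3 higher and 1 lower of 28 kept of 33 (median 0.03), where 12.3% of all genes passed 2-fold either way. The acetyltransferases Kat2a and Kat2b lay at 1.97 and 1.35, with Kat2a at 0.63 on its other probe set. The demethylase Kdm3a lay at 1.43, and the corepressor Sin3a at -1.54 or 0.63 by probe set. Purine and one-carbon synthesis had 1 higher and 3 lower of 12 kept of 15 (median -0.02), with Shmt1 at 2.09, Prps2 at -1.94, Adsl at -1.04 and Gart between -3.16 and -0.51 over 3 probe sets.

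The counts of cell type lists stand beside 12.3% past 2-fold over all genes, and most of these lists are short. Neuron markers had 0 higher and 1 lower of 14 kept of 14 (median 0.05), the lower being Elavl3, at -1.42 on its brighter kept probe set and 2.33 on the other. Microglia markers had 0 higher and 1 lower of 8 kept of 13 (median 0.06). That gene, the colony stimulating factor receptor Csf1r on which microglia depend, read 548 in sham and 220.5 after 1 shock (-1.31), with 299, 189.6 and 243 elsewhere, and its other probe set lay at -0.34. The microglial gene Laptm5 lay at 0.76 in the other direction. Endothelium had 0 higher and 1 lower of 3 kept of 11 (median -0.06), the lower being the thyroid hormone transporter Slco1c1 at -1.15. Dorsomedial and lateral hypothalamus had 0 higher and 1 lower (Hcrt) of 3 kept of 6 (median 0.03). No gene passed 2-fold among the 12 kept of 12 astrocyte markers (median 0.08), the 9 of 11 for oligodendrocytes (-0.06), the 4 of 4 for their precursors (-0.08) or the 4 of 9 for pericytes and smooth muscle (-0.12). The same held for the 4 of 7 for cortex and amygdala (-0.17), the 4 of 6 for thalamus (0.21), the 2 of 5 for the PVN (0.60) and the 4 of 6 for the arcuate nucleus. It held too for the 3 of 3 Y-linked genes (0.38) and for the single kept gene of 4 for tanycytes and ependyma, Vim at 0.24. Of the markers of blood, pituitary and choroid plexus 0 of 4, 0 of 5 and 0 of 3 were kept.

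**Figure D3:**
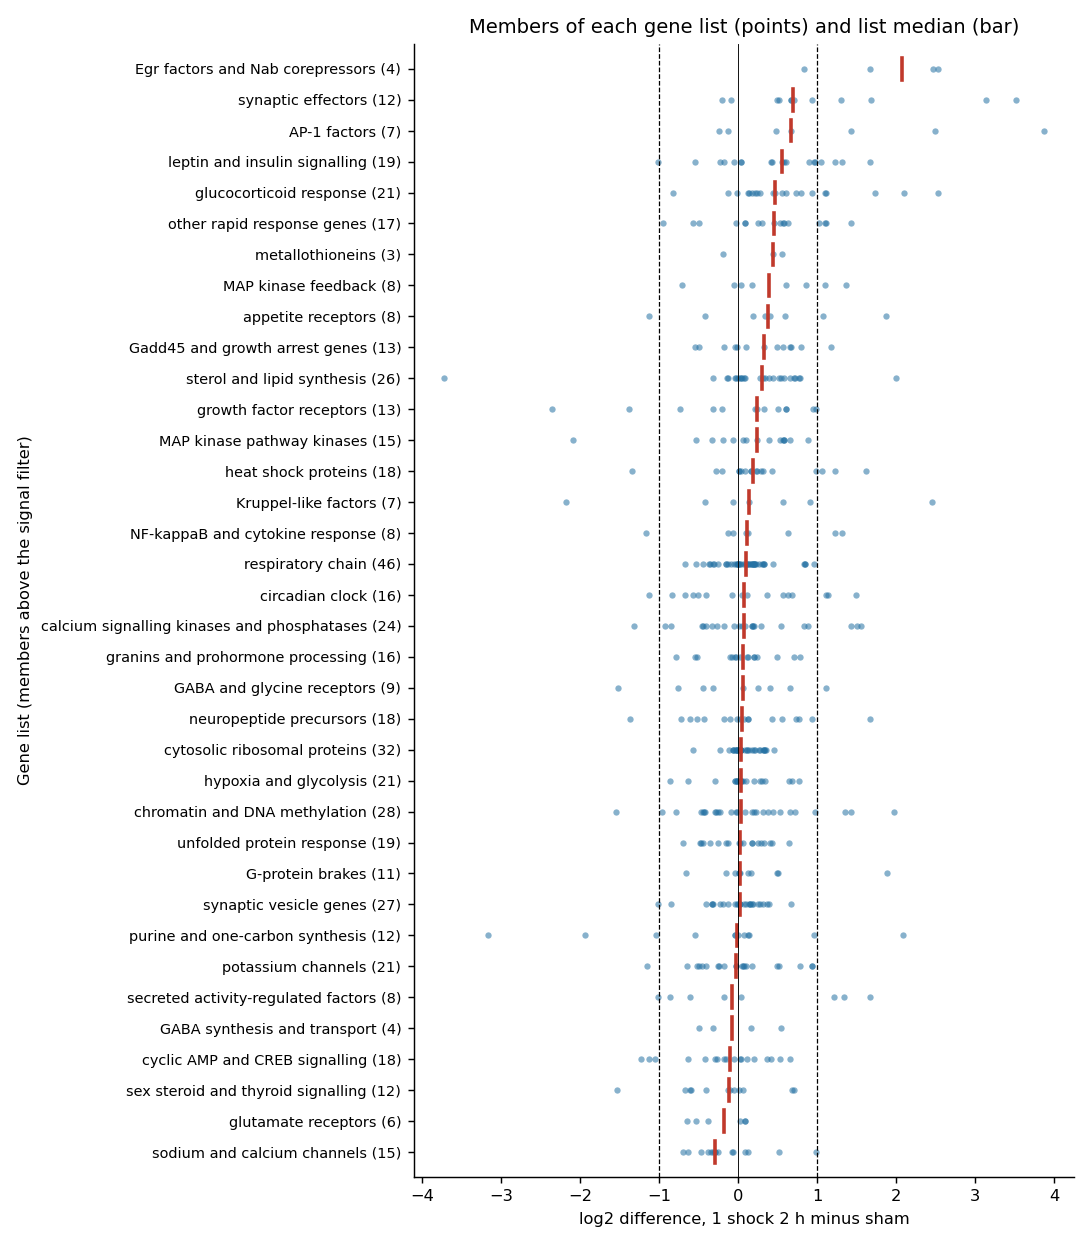
Log2 difference from sham of each kept member (blue points) and the list median (red bar) for the pathway lists with at least 3 kept genes (number in brackets), in order of their median, with dashed lines at 2-fold. The Egr and Nab list (2.07), synaptic effectors (0.69) and AP-1 factors (0.67) lie at the top, and the ribosomal and respiratory chain lists lie near 0.

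Genes read by several probe sets allow a check within these 2 arrays, although their probe sets read the same RNA pool and are not replicates. Of 2470 such genes, all probe sets were at least 2-fold higher in 14 (0.567%) and at least 2-fold lower in 11 (0.445%). Where the brightest probe set was at least 2-fold higher (107 genes, 4.33%), the second brightest had the same sign in 58.9%, was also past 2-fold in 20.6% and was past 2-fold the other way in 11 genes. Where it was lower (100 genes, 4.05%), the shares were 60% and 15%, with 5 genes the other way. Most single readings past 2-fold were therefore not repeated at that size by a second probe set.

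Jun came first among the higher genes ranked by their smallest difference over probe sets. Tnnt2, known as a heart troponin, gave 1.48 and 2.06, and read 14.4 in sham, 63.7 after 1 shock and 10, 64.7 and 39.5 on the others. Spsb4, an adaptor for protein degradation, gave 1.38 and 1.54. Dpysl3, a cytoskeletal protein of growing axons, gave 1.34 and 2.29, and the oxygenase Jmjd6 1.30 and 1.85. Rnd3, which loosens actin fibres, was the only bright gene of this group, at 118 and 267, with 171, 309 and 219 on the other arrays and 1.17 and 2.01 by probe set. The adhesion receptor Adgrg1 gave 1.30 and 1.75, the zinc finger protein Zpr1 1.18 and 1.90, and the ubiquitin ligase Rnf19b 1.04 and 1.90. Stat3, Cckbr and Tiparp, given above, complete the 12. Without centring Cckbr, Rnf19b and Tiparp fell below 2-fold on the brightest probe set, at 0.94, 0.91 and 0.89.

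In the lower direction the pseudokinase Trib2 came first, at -1.93 and -1.64. It read 34.7 in sham and 10.3 after 1 shock, and 32.3, 37.7 and 40.9 on the other arrays, so that the shocked 2 h array alone was low. Atad3a, an ATPase of the mitochondrial membrane, had 4 probe sets, between -1.83 and -1.25. It read 86 and 31.6, with 88.5, 99.6 and 79.1 elsewhere. The same pattern of a single low array held for Itm2a, a membrane protein, at 116 and 49.9 with 109.6, 107 and 105 elsewhere, and -1.33 and -1.20 by probe set. Kctd20 gave -1.47 and -1.26, the calpain Capn15 -1.46 and -1.22, and the centrosomal gene Cep70 -2.09 and -1.15. Prrc2a gave -1.77 and -1.11, the condensin subunit Smc4 -1.12 and -1.10, the annexin Anxa7 -1.04 and -1.02, and the haem synthesis enzyme Ppox -1.63 and -1.01. Dbp and the Polycomb gene Cbx7 (-1.22 and -0.93) complete the 12. With a pseudocount of 6.1 Anxa7, Cep70, Ppox and Smc4 came to -0.98, -0.99, -0.83 and -0.92.

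**Figure D4:**
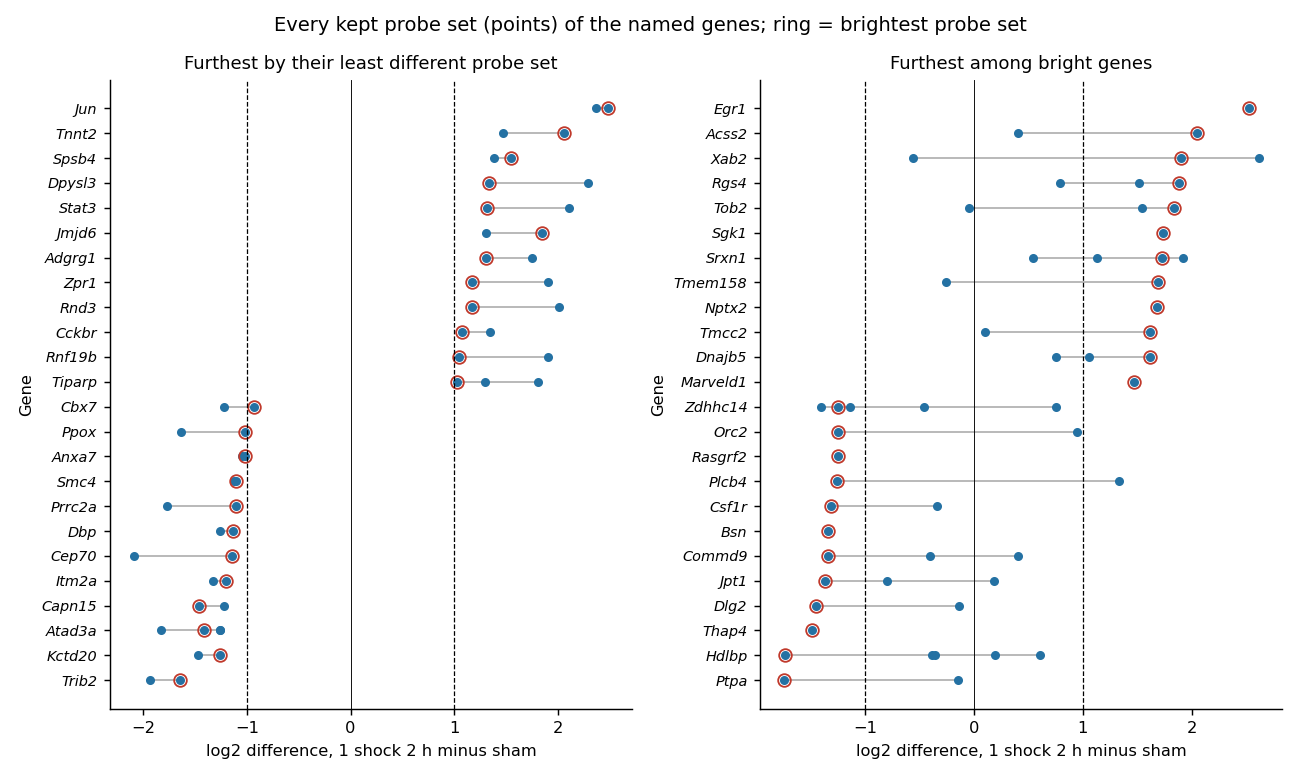
Log2 difference from sham of every kept probe set (1 point each) for the 12 higher and 12 lower genes ranked by their least different probe set (left) and for the 12 and 12 furthest bright genes (right), with a red ring on the brightest probe set and dashed lines at 2-fold. Jun lies at 2.37 and 2.49 and Trib2 at -1.93 and -1.64, whereas Xab2 spreads from -0.56 to 2.62 and Plcb4 from -1.26 to 1.33.

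Scatter was smaller among bright genes. Of 3128 genes with deposited signals at or above the array's median of kept probe sets on both arrays, 51 (1.63%) were at least 2-fold higher and 35 (1.12%) lower, together 2.75%. Past 4-fold there were 2 higher (0.0639%), Egr1 and Acss2, and 0 lower, against 48 (0.722%) and 45 (0.677%) among all genes. Acss2, which makes acetyl-CoA from acetate for lipids and histone acetylation, read 151 in sham and 629 after 1 shock (2.05), and 343, 232 and 278 on the others, but 0.40 on its other probe set. Next came Xab2, Rgs4, Tob2 and Sgk1. Xab2, a splicing and repair protein, gave 1.90 and 2.62 on 2 probe sets marked as prone to cross-hybridise and -0.56 on the third. Tob2, an antiproliferative partner of mRNA deadenylases, read 82.7 and 298 (1.84), with -0.04 as the lowest of 3 probe sets.

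Srxn1 encodes sulfiredoxin, which restores oxidised peroxiredoxins, and its promoter window with 2 AP-1 sites is printed above. It read 111 in sham and 371 after 1 shock (1.73), with 158, 170.4 and 426 on the other arrays, and its 4 probe sets ran from 0.54 to 1.92. Tmem158, a membrane protein that Ras signalling induces, was the brightest of this group at 511 and 1652 (1.69), with 1404, 1173 and 1894 on the others, although its second probe set lay at -0.26. Marveld1 read 204 and 569 (1.48) on its only kept probe set. The endoplasmic reticulum protein Tmcc2 gave 1.62 and 0.10 by probe set. Nptx2 and Dnajb5 are the others of the 12.

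Among bright genes in the lower direction, Ptpa, an activator of protein phosphatase PP2A, read 582 in sham and 173 after 1 shock (-1.74), but its other probe set lay at -0.14. Genes with a single kept probe set were the THAP domain gene Thap4 (265 and 93.6, -1.49), the presynaptic scaffold Bsn (298 and 117, -1.34) and the Ras exchange factor Rasgrf2 (251 and 105, -1.25). Bsn read 84.6, 282 and 245 on the other arrays, so that both single-shock arrays were low. The postsynaptic scaffold Dlg2 gave -1.45 and -0.14. For Hdlbp, Jpt1, Commd9, Plcb4, Orc2 and Zdhhc14 at least 1 other probe set lay above 0, up to 1.33 for the phospholipase Plcb4 and 0.95 for the replication origin protein Orc2. Csf1r, given above, is the remaining gene of the 12. Of the 9 with several kept probe sets, only Zdhhc14, a palmitoyl transferase, had another one at least 2-fold lower, and its 5 ran from -1.40 to 0.75.

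At the extremes, 3 genes (0.0451%) were at least 8-fold higher, namely Fos, Rrad and Arc, and 4 (0.0602%) at least 8-fold lower. The lower ones were Tmem97, a sterol-regulated membrane protein (156 and 10.7, -3.72), Nepro, a nucleolar protein (108 and 9.32), the purine enzyme Gart (63.6 and 6.03) and Grtp1 (160 and 17.3). Tmem97 read 33.3, 28.5 and 2.37 on the other arrays, so that sham stood above all 4 shock arrays. These folds rest on deposited shocked-array signals from 5.4 to 15.7, where the 25th percentile of all values was 6.1, so their sizes carry little weight. Gart came to -0.52 when both arrays had to be at or above their median, a filter that left it another probe set. Of the 398 higher genes, the shocked 2 h array was the highest of the 5 in 251 (63.1%), sham was the lowest in 238 (59.8%), and both held in 123 (30.9%). Over all 6650 genes these shares were 19%, 19.8% and 4.09%, and a gene chosen for its difference between these arrays had to score higher. Of the 418 lower genes, the shocked array was the lowest in 276 (66%), sham the highest in 235 (56.2%) and both in 121 (28.9%). Over all 6650 genes these shares were 19.9%, 16.8% and 3.82%, and the choice of genes raises them here too.

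The share of genes past 2-fold fell with brightness. In 4 equal groups of genes from the dimmest to the brightest it was 23.1%, 17%, 6.56% and 2.47%, and the SD of the log2 differences across genes was 0.89, 0.74, 0.56 and 0.39. The 398 higher genes had a median deposited signal of 30.8 on the sham array, their dimmer side, and the 418 lower genes of 22.4 on the shocked array. Dim genes are the ones that a larger pseudocount moves. With 6.1 in place of 1.2, 19 of the 107 named genes past 2-fold came out below it, among them Plat (0.98), Tgfb2 (-0.89), Hspa1l (0.90), Adsl (-0.99), Akt2 (-0.95) and Unc13a (-0.86). Fos, Arc, Rrad, Egr2 and Nab2 belong with the dim sham signals, and Egr1, Nptx2, Rgs4, Sgk1, Srf and Homer1 with the bright ones.

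**Figure D5:**
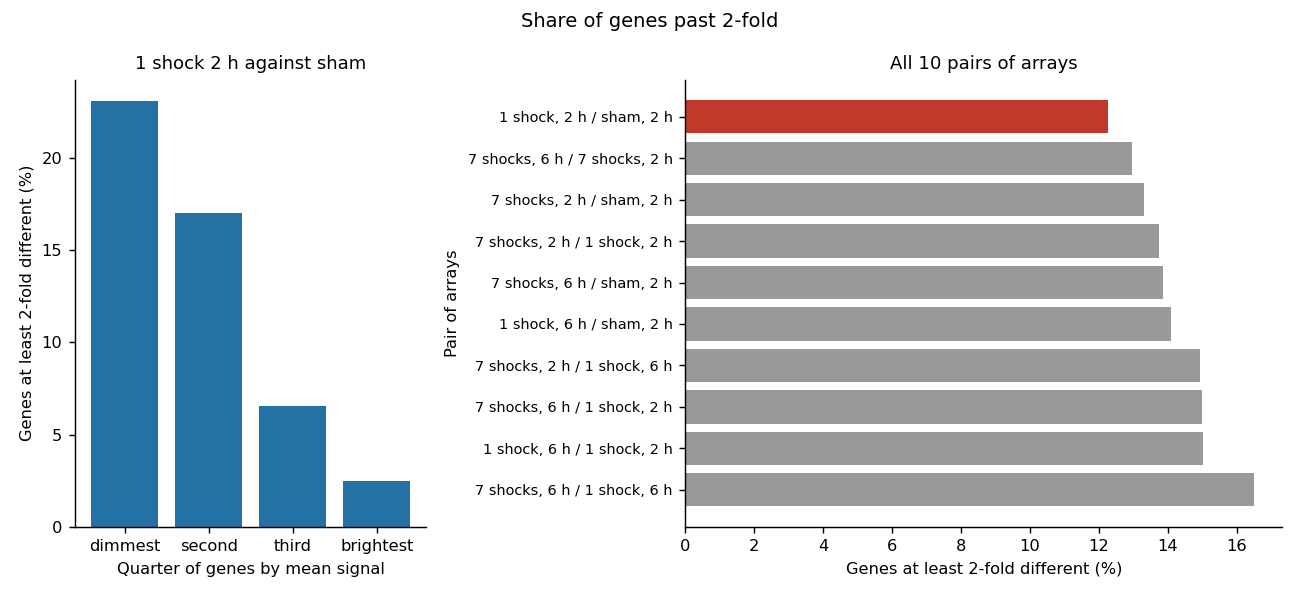
Share of genes at least 2-fold higher or lower than sham in percent, in 4 groups by mean signal (left) and for all 10 pairs of arrays (right). The share runs from 23.1% in the dimmest group to 2.47% in the brightest, and this pair is the lowest of the 10 at 12.3%.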

How the data were processed

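RNA of the microdissected VMH was read on 5 Affymetrix arrays, 1 for each group. Per the submitters' processing notes the deposited values are MAS5 signals, a linear intensity for each probe set. Software version, target intensity and detection calls are not stated in those sources. Of 22690 probe sets, 64 controls, 691 with several gene symbols and 1555 with none in the platform annotation were left out, and 20351 of the remaining 20380 matched a RefSeq gene. The 10th percentile of the deposited values, 1.2, served as pseudocount before log2, the top 50% of probe sets by mean log2 over the 5 arrays were kept (10402) and each array was centred on their median. Each gene was represented by the kept probe set of highest mean. Genes were called at a log2 difference of at least 1, with no test, since each group had 1 array, and their number limits the precision. Named genes were the 12 in each direction with the largest least difference over several probe sets of 1 sign, the 12 in each direction furthest among bright genes, and list members past 2-fold or among the 4 furthest of their list. Unnamed clones were counted only. A gene named outside this rule, such as a dim list member, was chosen with its values in view. Members, the 37 pathway lists and the 18 marker lists were chosen with earlier results of these data known. Another 10 settings of centring, pseudocount, filter and probe sets were tried, and 1 more, a filter on the linear mean, was added after the data were seen. The calling step was tested on simulated data with far less noise than these arrays, whose differences had an SD of 0.67 across genes. That checks the computation and says nothing on false calls in these data. Repeat arrays on other animals, which the design describes, were not used here. Tools were matplotlib 3.10.9, scipy 1.17.1, pandas 2.3.3 and numpy 2.4.6 under Python 3.11.15.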

Additional observations from a re-analysis of the deposited data

How the results depend on the processing

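Counts past 2-fold followed the filter on dim probe sets. With no filter 1685 genes were higher and 1357 lower, with the top 25% of probe sets 85 and 83, and with probe sets at or above the array median on both arrays 245 and 250. Without centring they were 291 and 572. Genes with all of several probe sets past 2-fold were 106 higher and 69 lower with no filter, 7 and 2 with the top 25% and 8 and 6 with the filter on both arrays. Without probe sets marked by the suffix x, s or a they were 8 and 6. They were 9 and 21 without centring, and 7 lower with a pseudocount of 6.1. Fewer or more probe sets enter under another filter, the share past 2-fold differs with brightness, and the arrays are shifted by 0.13 without centring. For the pseudocount the cause was not tested. The medians of the AP-1, Egr and synaptic effector lists moved little under every alternative that gave a value. That of secreted factors was 1.41 with no filter, where that of all genes was 0.10. A median was given only with at least 3 kept members, so a strict filter that left fewer was no check on these lists. Of 107 named genes past 2-fold, 64 stayed so in the same direction under every alternative that measured them and 43 did not. An alternative that left a gene out did not count against it, and the top 25% of probe sets measured only 39 of the 107. A direction turned for 6 of the 107. Socs2 came to 0.0714 with the filter on the mean of the 2 arrays and 0.0606 with that on both arrays. Without the marked probe sets Socs2 came to 0.0849, Commd9 to 0.42 and Xab2 to -0.54. Clock (-0.46), Elavl3 (0.45) and Plcb4 (0.0345) turned with the mean of probe sets. Nras, at 0.65 in the main setting and so not among the 107, came to -1.43 without the marked probe sets. With the mean, the value averages the brightest probe set with others, and in the remaining cases another probe set of the gene gave it. The filter on the linear mean, chosen after seeing the data, gave 419 and 455. No paired analysis was possible because each group had 1 array. With 1 array a side, the spread between animals cannot be given for any value.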
